A study of Mus musculus with 10 samples.

Results

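The cytosolic ribosomal protein genes encode the proteins of the ribosome that translates nuclear-encoded mRNA. They were chosen by symbol (Rpl or Rps followed by a digit, with Rplp0, Rplp1, Rplp2 and Rpsa, and without the Rps6k kinases and symbols holding -ps), and 86 of the 13091 genes in the deposited tables matched. Of these, 77 stood on a list of the core ribosome, 31 of the small subunit and 46 of the large subunit, and 9 stood outside it. The outsiders were 5 gene relatives (Rpl3l, Rpl7l1, Rpl22l1, Rpl36al, Rps27l), 3 near copies (Rpl32l, Rpl37rt, Rps27rt) and Rps19bp1, which encodes a protein that binds S19 and not a ribosomal protein.

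The cells were neutrophils matured in culture from clonal bone marrow progenitors of 129-SVEV mice, held in a dividing state by an estrogen-dependent HoxB8 and released by removing estrogen in IL-3 and G-CSF. Poly(A) RNA was sequenced from 2 Vim+/+ and 3 Vim-/- biological replicates, each unstimulated or treated for 1 hour with 25 ng/mL LPS, the bacterial cell wall component sensed through TLR4, giving 10 libraries in 4 groups. All cells, controls included, carry the HoxB8 transgene. The study derived several clonal lines of each genotype, and the sources used here do not say whether each replicate is a line of its own, so that differences between lines and between genotypes cannot be told apart. The labels call the Vim-/- cells a knockdown and the study's methods derive them from knockout mice. Vim itself had a log2 fold change of -13.56 (SE 0.335) in unstimulated and -12.44 (SE 0.243) in LPS-treated cells, Vim-/- over Vim+/+.

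A ribosome joins a small subunit, which holds the mRNA and reads its codons, to a large subunit, which forms the peptide bond. Most of the proteins are needed in equal number, apart from those of the acidic stalk, which are present in several copies, and their genes are scattered over the genome. The mRNAs begin with a tract of pyrimidines, the terminal oligopyrimidine or TOP motif, through which the kinase mTORC1 and the protein LARP1 set their translation and stability together. Neutrophil precursors make many ribosomes, and mature neutrophils, which no longer divide, make few.

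The annotated starts of the genes that the results turn on show this motif unevenly. In RefSeq on GRCm38.p6, 66 of the 86 genes had a start sequence, with 78 starts in all. A run, meaning a C followed by at least 4 C or T, was sought on the gene's own strand only. The annotated first base was such a C, also inside a longer run, at 19.2% of the starts of these genes and 2.51% of all 32851 starts. Within 5 bases of the annotated first base on either side the shares were 42.3% and 18.3%. The 30 bases below run from 15 before the annotated first base, which is base 16 of each window, and capitals mark the longest such run beginning within those 5 bases. The first 5 belong to genes with the largest genotype difference, the next pair to 2 of the 3 annotated starts of Rpl35a, the core gene with a value above 0, and the last 3 to Rps27 and its relatives. Rpl36 was among the largest differences too.
Rps2 at chr17:24720048-24720077, plus strand: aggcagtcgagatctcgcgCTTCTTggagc
Rps10 at chr17:27635230-27635259, minus strand: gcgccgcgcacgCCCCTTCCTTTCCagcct
Rps18 at chr17:33955651-33955680, minus strand: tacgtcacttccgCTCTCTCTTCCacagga
Rpl14 at chr9:120571502-120571531, plus strand: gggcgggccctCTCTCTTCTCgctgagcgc
Rpl37rt at chr5:115110254-115110283, minus strand: gtcttcaggccagagcccgcacccagcagt
Rpl35a at chr16:33056438-33056467, plus strand: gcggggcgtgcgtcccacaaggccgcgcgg
Rpl35a at chr16:33056467-33056496, plus strand: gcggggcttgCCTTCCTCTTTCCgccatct
Rps27 at chr3:90213634-90213663, minus strand: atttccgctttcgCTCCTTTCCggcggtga
Rps27l at chr9:66946071-66946100, plus strand: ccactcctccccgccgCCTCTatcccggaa
Rps27rt at chr9:114982725-114982754, minus strand: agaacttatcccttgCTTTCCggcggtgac
The run was present at the core genes with a difference past 2-fold that are shown here, at 1 of the 3 starts of Rpl35a and at the starts shown of Rps27, Rps27l and Rps27rt. It was absent at Rpl37rt, at the other starts of Rpl35a and at a second annotated start of Rps27l, which is not shown. A match describes these letters alone, and where transcription began in these cells was not measured.

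The values below come from the authors' deposited tables of 4 comparisons, which hold no value per library. The level of a gene is its baseMean, the normalized count averaged over the libraries, and a difference is a log2 fold change with its standard error from 1 model over all libraries. A gene passed at an adjusted p under 0.05 in the authors' DESeq2 Wald test. Depth per library is unknown, and the precision of each difference is carried by its standard error alone. That error was small for these genes, with a median of 0.143 for the core genes in unstimulated cells against 0.270 for all genes, so that a given difference passed more readily among them.

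Ribosomal protein mRNAs were among the abundant transcripts of the cells. The 86 genes held 4.08% of the summed baseMean of all genes, and the core genes ranged from 3240 for Rpl29 to 109495 for Rps9. Per kilobase of the longest annotated transcript, the median level of a core gene was 24989 against 310 for all genes with a length, and 32106 against 348 per kilobase of the principal transcript. Per kilobase of the longest transcript, the highest core levels were those of Rplp1 of the stalk (93356), Rps9 (81288) and Rpl23a of the exit tunnel (59179). On that scale the lowest were those of Rpl35a (2068), Rps15a (2104) and Rpl30 (3358). Per kilobase of the principal transcript the order changed, with Rps9 (119797), Rplp1 (93356) and Rps12 (77817) highest and Rps15a (2104), Rpl29 (4420) and Rpl22 (5204) lowest. The longest annotated transcripts of Rpl35a and Rpl30 are not their principal ones, and these genes stood at 11388 and 9141 on this second scale. Rps15a was divided by a transcript of 5179 bases on both scales, and its baseMean of 10899 lay above the 3240 of Rpl29. The small subunit genes had a median of 26547 per kilobase of the longest transcript and the large subunit genes one of 21123.

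In unstimulated neutrophils nearly the whole set was lower in Vim-/- cells. Of the 86 genes, 73 passed as lower, where 6.15% of all genes tested did, and 0 passed as higher, where 12.6% of all genes did. The median log2 fold change was -0.70 over the 86 genes and 0.08 over all 13091. The median core gene stood at 60.5% of its Vim+/+ level. Fewer cells of a type and less RNA per cell cannot be told apart in bulk RNA. With the Wald statistics of all genes scaled to their own spread, a stricter reading in which 188 of all genes passed, 20 of the 86 did, all lower. The members share their libraries and 1 normalization, so that their common direction is not a set of independent observations.

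The 31 small subunit genes had a median of -0.70 (range -1.07 to -0.31) and 29 passed as lower. The 46 large subunit genes had a median of -0.74 (range -1.11 to 0.37) and 42 passed as lower. The medians differed by 0.03, and this difference was not tested. Around the core median, 70 of 77 genes had a 95% interval that included it. The SD over the core genes was 0.203, and 0.161 without Rpl35a.

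**Figure D1:**
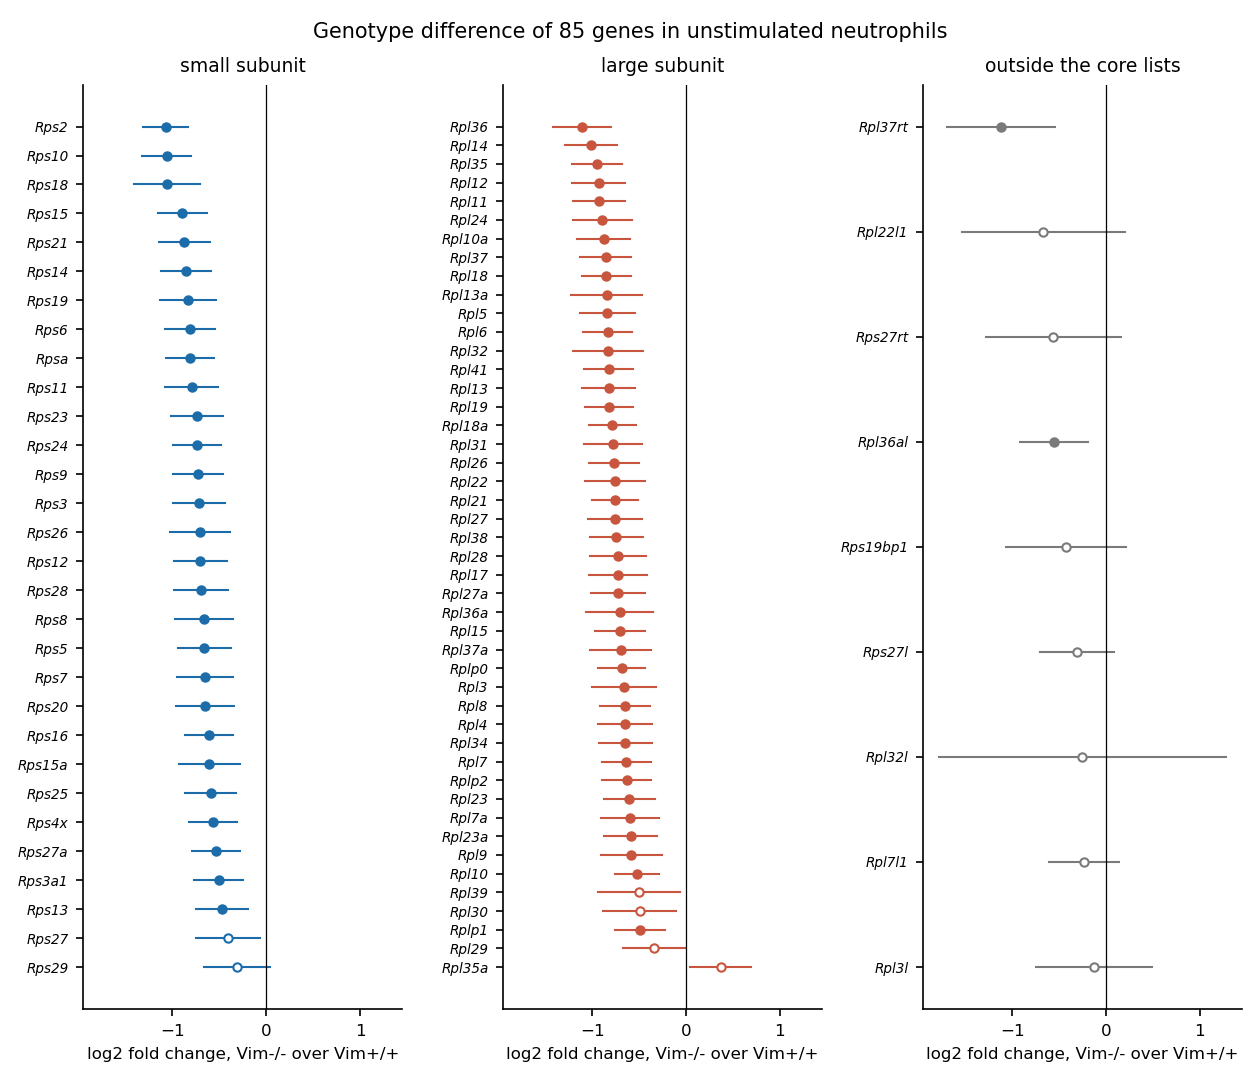
Of the 86 genes, 85 are shown in unstimulated neutrophils, by class. Points give the log2 fold change of Vim-/- over Vim+/+ and lines its 95% interval, filled points passed at an adjusted p under 0.05. All points but that of Rpl35a (0.37) lie left of 0.

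Past 2-fold, 6 of the 86 genes were lower, where 1.67% of all genes were. Rps2, a protein by the mRNA entry channel of the small subunit, stood at 47.6% of its Vim+/+ level (95% interval 40.3 to 56.2, log2 fold change -1.07, SE 0.122). Rps10 and Rps18 sit in the head of the small subunit and stood at 47.9% (SE 0.135 on the log2 scale) and 48.0% (SE 0.179). In the large subunit, Rpl36 stood at 46.4% (SE 0.158) and Rpl14 at 49.6% (SE 0.141). Rpl37rt, with a baseMean of only 609, stood at 46.1% (95% interval 31.0 to 68.5). The 95% interval of each of the 6 overlapped those of the next genes in the order, Rpl35 (51.7%), Rpl12 (52.4%) and Rpl11 (52.7%), and the differences between these genes were not tested.

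Of the core genes, 6 did not pass in unstimulated cells, and 5 of them had values below 0. Rps29 had a log2 fold change of -0.31 (adjusted p = 0.236 in DESeq2) and Rps27 one of -0.41 (0.0801). Rpl29, whose product is a peripheral protein of the large subunit, had -0.34 (adjusted p = 0.163), Rpl30 -0.49 (0.0605) and Rpl39 -0.50 (0.0991). Rps29, Rps27, Rpl30 and Rpl39 were singled out here after their values were seen.

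The exception was Rpl35a, which encodes a large subunit protein needed for the maturation of its rRNA and mutated in some patients with Diamond-Blackfan anemia. Its log2 fold change was 0.37 (SE 0.167, adjusted p = 0.105 in DESeq2) in unstimulated cells. After LPS it was higher in Vim-/- cells at 0.77 (SE 0.166, adjusted p = 0.000143), the 1 member that passed as higher there, where 6.68% of all genes did. Relative to genes of like length its value in unstimulated cells was 0.35 by its longest transcript, and 0.70 by its principal one, where it passed (adjusted p = 0.000689). Among the Diamond-Blackfan anemia genes on the list, Rps7, Rps10, Rps19, Rps24, Rps26, Rpl5, Rpl11 and Rpl26 passed as lower in unstimulated cells, between -1.06 and -0.65. Rpl35a lies at chr16:33056453-33060189 (RefSeq, GRCm38.p6), where Rpl24, the other core gene of chromosome 16, had -0.89.

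Structural groups within the ribosome are given beside the 73 of 86 members, and 6.15% of all genes, that passed as lower in unstimulated cells. In the acidic stalk, the flexible arm that recruits translation factors, all 4 genes passed as lower in unstimulated cells. Its base proteins Rplp0 and Rpl12 had -0.69 (SE 0.129) and -0.93 (SE 0.146), and its tip proteins Rplp1 and Rplp2 had -0.49 (SE 0.136) and -0.63 (SE 0.132). In the 5S RNP, whose free form binds Mdm2, Rpl5 had -0.84 (SE 0.151) and Rpl11 -0.93 (SE 0.141), and both passed. Around the peptide exit tunnel 7 of 8 genes passed as lower, with a median of -0.75, and in the head of the small subunit 13 of 14 did, with a median of -0.68.

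Many genes that work beside the core set passed as lower. Fau encodes a ribosomal protein as a fusion to a ubiquitin-like protein, and passed as lower at -0.85 (SE 0.149). Of 20 other TOP mRNAs of translation, 14 passed as lower, where 6.15% of all genes did, and 0 as higher in unstimulated cells. Their median was -0.50, and 19 of the 20 had values below 0. Among them were the ribosome-bound scaffold Rack1 (-0.79, SE 0.138), the elongation factor subunit Eef1b2 (-0.88, SE 0.169), the elongation factor Eef2 (-0.52, SE 0.151) and the initiation factor subunit Eif3h (-0.73, SE 0.141). This list was chosen with earlier results of these data known.

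Of 16 genes of the mTORC1 pathway and TOP mRNA control, upstream regulators of the set, 4 passed as lower, where 6.15% of all genes did, and 0 as higher, where 12.6% did, in unstimulated cells. Of the 16, 8 had values below 0 and 8 above it, and the median was -0.01. The 4 were Eif4ebp1, a translation repressor inhibited by mTORC1 (-0.62, SE 0.236), its fellow target Rps6kb2 (-0.58, SE 0.195), and the mTORC1 inhibitors Akt1s1 (-0.54, SE 0.208) and Ddit4 (-0.49, SE 0.136). Larp1 had 0.20 (SE 0.187) and did not pass. Of 12 genes for the transcription of ribosomal genes, 1 passed, Mxd1, an antagonist of Myc, at 0.94 (SE 0.140). Myc had 0.03 (SE 0.281) in unstimulated cells and was higher in Vim-/- cells after LPS at 1.54 (SE 0.287, adjusted p = 4.26e-06 in DESeq2).

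Marker genes of maturation and of other cells were read against the same shares of all genes, 6.15% passing as lower and 12.6% as higher in unstimulated Vim-/- cells. All 12 markers of neutrophils past the primary granule stage, granule genes such as Camp and Ngp included, were listed, at a median baseMean of 107915. Of these, 5 passed as higher in unstimulated Vim-/- cells (Itgam, Cxcr2, Mmp8, Camp and Ngp). Of 5 primary granule genes, which mark immature neutrophils, Prtn3 (-1.14, SE 0.214) and Ctsg (-2.55, SE 0.289) passed as lower, and the list's median was -1.14. Of 9 progenitor and proliferation genes, 4 passed as higher, among them Top2a (0.99, SE 0.220), and Cd34 passed as lower. Of the monocyte and macrophage markers 5 of 7 were listed and 2 passed as lower, of those of eosinophils and basophils or mast cells 8 of 8 were listed and 3 passed as lower, and of the lymphoid and erythroid ones 2 of 8 were listed and 1 passed as lower. Summed levels by group are not given by these tables, and the part of these markers in the ribosomal protein values was not tested.

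Transcript length moved with the genotype difference across all genes, and ribosomal protein mRNAs are short. The median length of the longest transcript was 1094 bases for the core genes and 3200 for all genes. Among genes that were not members, those in the shortest of 10 bins of length, up to 1222 bases, had a median log2 fold change of -0.25 in unstimulated cells, and those in the longest bin, from 6575 bases, one of 0.44. In the shortest bin the 44 core genes had a median of -0.73 and 90.9% passed as lower, against 12.3% of the others. With each gene's fold change taken relative to genes of like length, the core median was -0.52, 76 of 77 core genes stayed below 0, and 55 of the 73 members that had passed still did. With the principal transcript's length, a choice added after the data were seen, the median was -0.47 and 47 of the 73 still passed. None of the 6 genes past 2-fold remained past it at like length of either transcript. By the longest transcript the lowest value was -0.95 for Rpl12. By the principal transcript it was -0.95 for Rpl18, and Rpl12 had -0.75. Within the core genes themselves, length and the genotype difference had a Spearman rho of 0.04 over 77 genes. GC content had one of -0.39 over the same genes, which share their libraries.

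**Figure D2:**
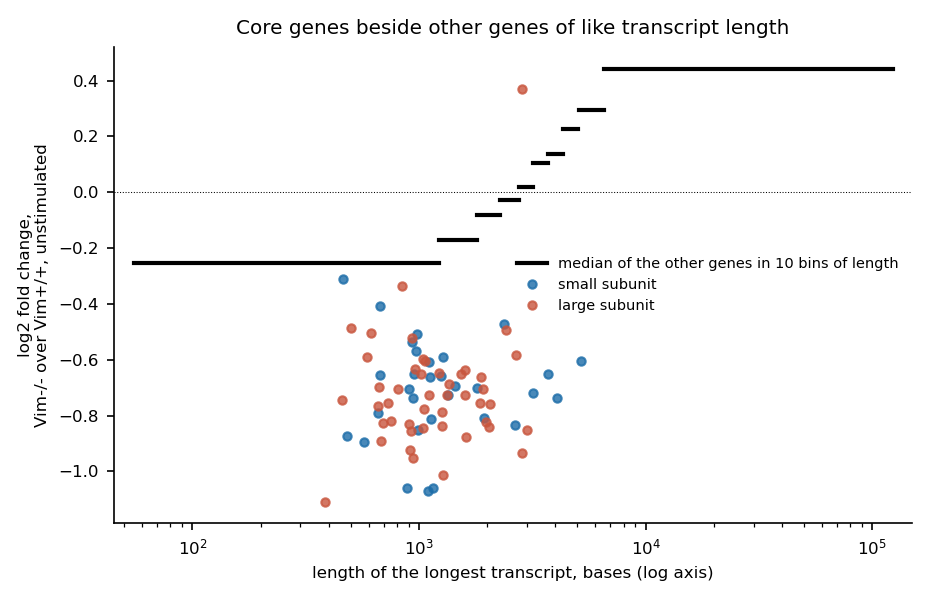
Log2 fold change of Vim-/- over Vim+/+ in unstimulated cells against the length of the longest transcript, on a log axis. Points are the 77 core genes and black lines the medians of all other genes in 10 bins of length, which rise from -0.25 to 0.44, while the core genes have a rho of 0.04 with length.

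The 4 core genes past 2-fold other than Rpl14 lie on chromosome 17. The 539 genes of that chromosome with a baseMean of at least 100 had a median of -0.33 in unstimulated cells and 22.3% of them passed as lower, whereas the medians of the other chromosomes that carry members lay between -0.0041 and 0.19. The 6 core genes of chromosome 17 had a median of -1.06, with Rpl10a at -0.87 and Rps28 at -0.70 beside the 4. The 71 core genes elsewhere had a median of -0.71, and 65 of them passed as lower. Relative to the median of their own chromosome, Rpl36, Rps2, Rps10 and Rps18 took ranks 39, 46, 48 and 49 of 86 instead of 2 to 5. The genes under -1 were then Rpl37rt, Rpl14, Rpl12, Rpl35, Rpl24 and Rpl11, and 76 of 86 passed as lower. Centring on the chromosome was added after the data were seen.

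**Figure D3:**
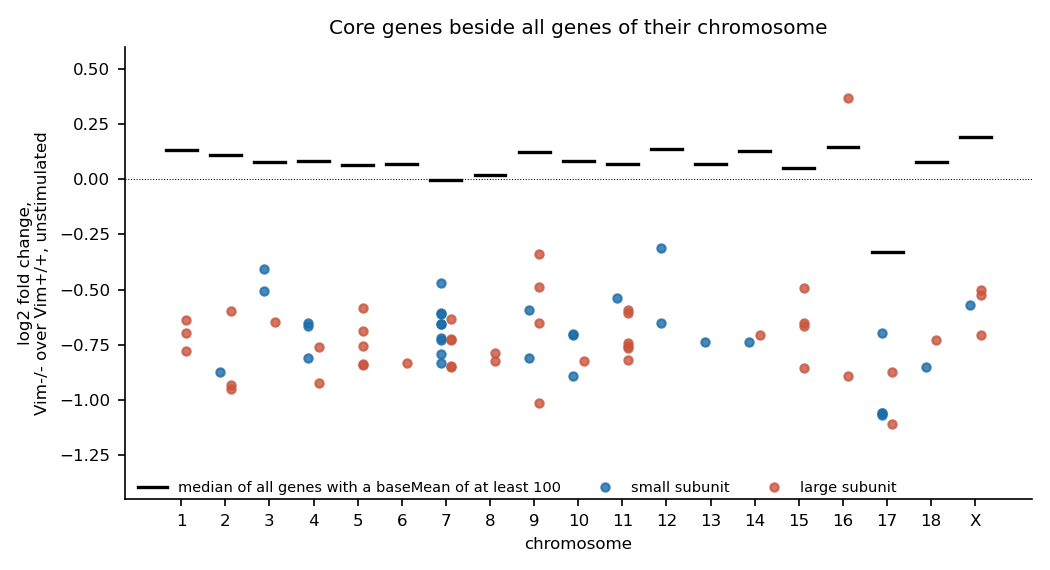
Log2 fold change of Vim-/- over Vim+/+ in unstimulated cells for the 77 core genes (points, by subunit) and the median of all genes with a baseMean of at least 100 (black lines), by chromosome. On chromosome 17 the line lies at -0.33 and 4 of the 6 points below -1, and the point above 0 is Rpl35a on chromosome 16.

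After 1 hour of LPS the same comparison between genotypes gave smaller differences. Of the 86 genes, 47 passed as lower in Vim-/- cells, where 4.35% of all genes did. The small subunit median was -0.44, with 19 of 31 passing as lower, and the large subunit median was -0.45, with 28 of 46. The median core gene of the small subunit stood at 73.6% of its Vim+/+ level and that of the large subunit at 73.1%. The lowest values were those of Rpl3l (-0.82, SE 0.317) and Rpl37rt (-0.78, SE 0.291), which did not pass, and of Rps10, which did (-0.73, SE 0.135, adjusted p = 3.39e-06 in DESeq2). The highest below Rpl35a were those of Rps27l (0.09, SE 0.201) and Rpl22l1 (0.00073, SE 0.445). At like transcript length the core median was -0.38, and 28 of the 47 still passed. With the Wald statistics scaled to their own spread 2 of 86 passed, near the share over all genes, of which 290 passed in either direction. Fau passed here as well, at -0.46 (SE 0.149), and 6 of the 20 other TOP mRNAs passed as lower.

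**Figure D4:**
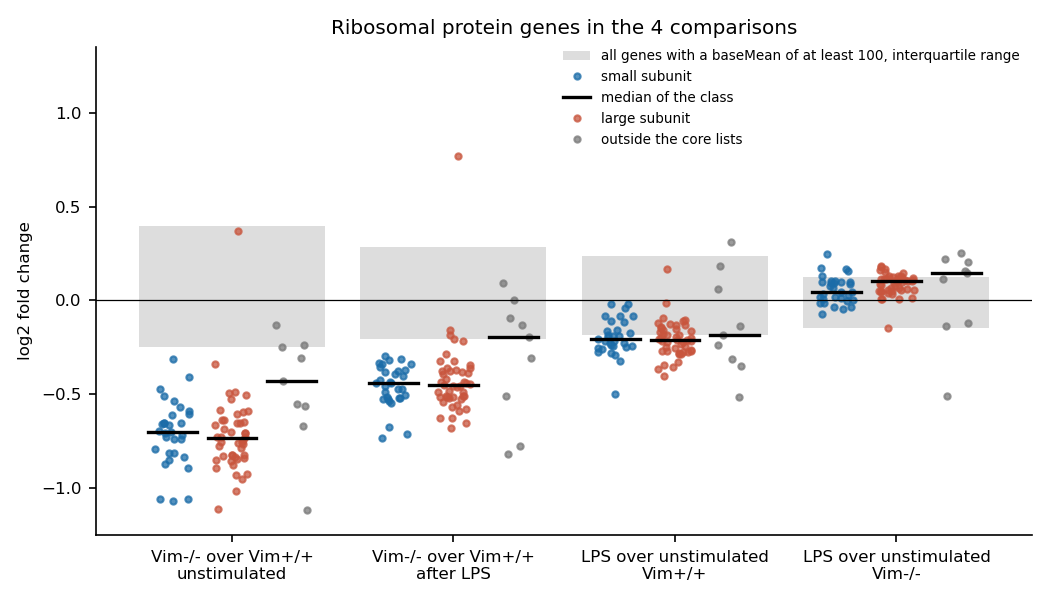
Log2 fold changes of the 86 genes in the 4 comparisons, by class (points), with class medians (black lines) and the interquartile range of all genes with a baseMean of at least 100 (grey). Small and large subunit medians lie at -0.70 and -0.74 unstimulated and at -0.44 and -0.45 after LPS. For LPS in Vim+/+ cells they lie at -0.20 and -0.21, below the grey range, and for LPS in Vim-/- cells at 0.04 and 0.10, within it. The grey range is that of single genes and is no test of a median.

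The effect of LPS within each genotype was small for single genes. In Vim+/+ cells 1 of the 86 genes passed as lower, where 0.374% of all genes did, and 0 passed as higher, where 1.8% did, while 9 had an unadjusted p under 0.05, where 11.7% of all genes did. The gene was Rps14, at -0.50 (SE 0.147, adjusted p = 0.0365 in DESeq2). The span of Rps14 overlaps that of Ndst1 on the other strand, whose baseMean was 45.5% of its own. The core median was -0.21, 76 of 77 core genes were below 0, and the subunits had medians of -0.20 and -0.21. The lowest value was that of Rpl22l1 (-0.51, SE 0.481), which did not pass, followed by Rps14 and the large subunit gene Rpl15 (-0.40, SE 0.148). Among members with a baseMean of at least 100 the highest were those of Rpl3l (0.18, SE 0.342), Rpl30 (0.17, SE 0.213) and Rps27rt (0.06, SE 0.394), and Rpl32l, below that level, had 0.31 (SE 0.838). At like transcript length the core median was -0.07, 56 of 77 were below 0, and Rps14 no longer passed.

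In Vim-/- cells the values lay on the other side of 0. None of the 86 genes passed the authors' DESeq2 test in either direction, where 0.698% of all genes passed as lower and 1.51% as higher, and 1 had an unadjusted p under 0.05, where 7.23% of all genes did. That gene was Rps2, at 0.25 (SE 0.111). The core median was 0.09, and 69 of 77 core genes were above 0, 24 of 31 in the small subunit and 45 of 46 in the large. Among members with a baseMean of at least 100, Rps2, Rps27l (0.22, SE 0.183) and Rpl37rt (0.20, SE 0.266) had the highest values, and Rpl32l, below that level, had 0.25 (SE 0.704). Rpl3l (-0.51, SE 0.288), Rpl29 (-0.15, SE 0.155) and Rpl7l1 (-0.14, SE 0.172) had the lowest.

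Whether the 2 genotypes responded differently was tested gene by gene from the difference of the 2 responses, Vim-/- minus Vim+/+, with a normal test over all genes. By construction this difference equals the genotype difference after LPS minus that before it, so the narrowing above and the opposite medians of the responses are 1 observation. None of the 86 genes passed, where 0.0764% of all genes did in either direction, and 15 had an unadjusted p under 0.05, where 6.04% of all genes did. The smallest adjusted p was 0.288, for Rps2, whose difference was 0.57 (SE 0.172, 95% interval 0.23 to 0.90). Rps14 followed at 0.51 (SE 0.192) and Rpl15 at 0.50 (SE 0.193). The median over the core genes was 0.28, 0.26 in the small and 0.30 in the large subunit, and 72 of 77 were above 0. The 5 at or below 0 were Rpl30 (-0.16), Rps27 (-0.02), Rps28 (-0.02), Rpl29 (-0.0071) and Rps29 (-0.0044). Rps28 stood at 61.8% of its Vim+/+ level before LPS and 61.1% after it. These 5 were listed after their values were seen. At like length of the longest transcript the core medians of the responses were -0.07 in Vim+/+ and 0.09 in Vim-/- cells, against -0.21 and 0.09 as deposited.

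**Figure D5:**
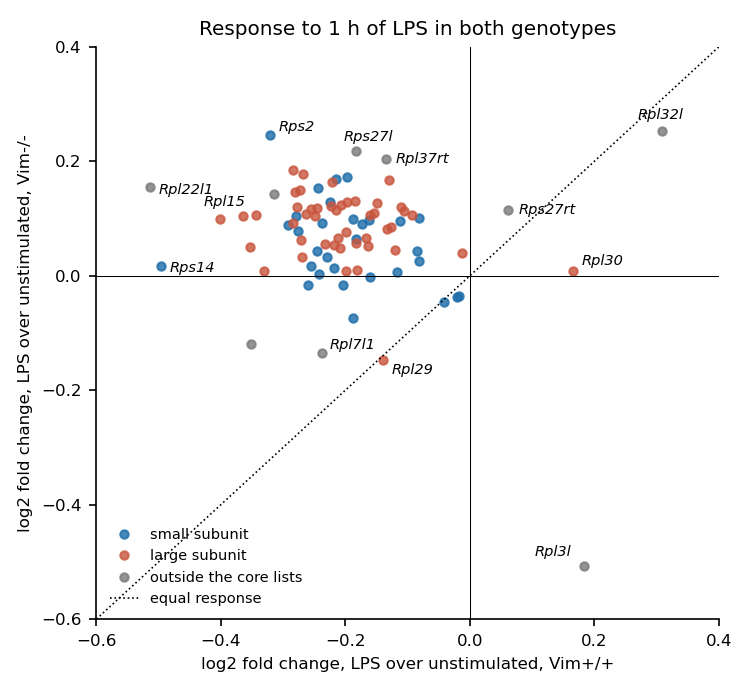
Response to 1 hour of LPS (log2 fold change over unstimulated) in Vim+/+ cells on the x axis and Vim-/- cells on the y axis, for the 86 genes by class. Most points lie left of 0 and above 0, around the core medians of -0.21 and 0.09, and Rpl3l lies farthest below the line of equal response.

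The relatives of core genes were expressed below their parents and were less precisely measured. Rpl3l, the muscle paralog of Rpl3, had a baseMean of 480 against 17277, Rpl22l1, which Rpl22 represses in other cells, one of 369 against 10674, and Rpl7l1 one of 4761 against 55577 for Rpl7. Rpl36al, an expressed retrocopy, had one of 4391 against 12955 for Rpl36a, and Rps27l, a target of p53, had 2562 against 11550 for Rps27. Per kilobase of the principal transcript the parent's level was 6.52 times that of Rps27l, 7.79 times that of Rpl22l1, 7.80 times that of Rpl36al, 26.2 times that of Rpl7l1 and 36.6 times that of Rpl3l. Rpl10l, Rpl39l and Rps4l were not listed in the tables.

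In unstimulated cells 1 of these 5 relatives passed as lower, where 6.15% of all genes did, and 0 as higher, where 12.6% did. Rpl36al was lower in Vim-/- cells at -0.55 (SE 0.185, adjusted p = 0.0204 in DESeq2), beside -0.71 (SE 0.183) for Rpl36a. Rpl22l1 had -0.67 (SE 0.444) beside -0.76 (SE 0.164) for Rpl22, and Rps27l -0.31 (SE 0.201) beside -0.41 (SE 0.172) for Rps27. Rpl3l had -0.13 (SE 0.317) beside -0.66 (SE 0.174) for Rpl3, and Rpl7l1 -0.24 (SE 0.189) beside -0.64 (SE 0.133) for Rpl7. After LPS none of the relatives passed in the authors' DESeq2 test, where 4.35% of all genes passed as lower and 6.68% as higher. Of the 5, 1 had an unadjusted p under 0.05 there, Rpl3l (adjusted p = 0.0738 in DESeq2), and Rpl36al had -0.09 (SE 0.185) where Rpl36a had -0.52 (SE 0.182). Of the parents whose relative was not listed, Rpl10 passed in unstimulated cells at -0.52 (SE 0.122) and Rps4x at -0.57 (SE 0.132). Rps19bp1 had -0.43 (SE 0.325) and did not pass.

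The 3 near copies share most of the coding sequence of their parents, and their values are uncertain where reads match both. The coding sequence of Rpl37 matched Rpl37rt at 290 of 291 bases, that of Rps27 matched Rps27rt at 252 of 252, and that of Rpl32 matched Rpl32l at 388 of 398 aligned bases. Among the 5 relatives the identity to the parent ran from 72.1% over 183 aligned bases (Rpl7l1) to 87.7% over 318 (Rpl36al). How the authors' counting split shared reads is not given in the sources used here. Rpl37rt had -1.12 (SE 0.292) in unstimulated cells, beside -0.86 (SE 0.137) for Rpl37. Rps27rt had -0.56 (SE 0.366) beside -0.41 for Rps27, and Rpl32l, at a baseMean of 58.6, had -0.25 (SE 0.780) beside -0.83 (SE 0.189) for Rpl32.

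Overlapping genes touch a few members. The spans of 20 members overlap another listed gene, 15 of them on the opposite strand, and for 6 that gene's baseMean was at least 10% of the member's. They were Rpl31 with Tbc1d8 (68.1%), Rps14 with Ndst1 (45.5%), Rpl18 with Sphk2 (43.9%), Rps18 with Vps52 (17.8%), Rpl28 with Ube2s (12.5%) and the low Rpl32l inside Map7. Whether counting used strand is not given in the sources used here. Without these members and the copies and relatives, 66 of 73 genes passed as lower in unstimulated cells and 43 after LPS, where 6.15% and 4.35% of all genes did.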

How the data were processed

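RNA was sequenced from 10 libraries in 4 groups, which were taken from the sample labels. The authors trimmed reads with cutadapt 4.4, aligned them to mm10 with STAR 2.7.10b, used RUVSeq to estimate 4 covariates of unwanted variation, and fitted DESeq2 1.26.0, as given in the study's methods and the submitters' processing notes. Beside 4 groups those covariates leave 2 residual degrees of freedom among 10 libraries. What was deposited are 4 tables of comparisons, and per the file headers the signal in them is baseMean, the mean normalized count. The deposited log2 fold changes and standard errors, the Wald statistic (a score) and the p-values, raw and adjusted, come from the authors' model. Because the tables hold the authors' comparisons, these columns were used as the data, and the sign of genotype values was changed so that they read Vim-/- over Vim+/+. The authors' category columns were not used. Depth per library is unknown, and nothing was fitted again. Whether replicates came from separate clones or cultures is not given in the sources used here. The p-values measure only the spread between these libraries that is left after the 4 covariates.

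The members were chosen by symbol, and the members and gene lists were chosen with earlier results of these data known. The genes named were the 3 lowest and 3 highest members per comparison (baseMean 100 or more), members past an adjusted p of 0.05 and a log2 fold change of 1, members of lists under 5 genes and of paralog pairs, those outside the core lists, the 3 highest and 3 lowest core genes per kilobase, and Vim. Differences of LPS responses were tested from the deposited values by a normal test, two-sided, adjusted after Benjamini and Hochberg. This test is approximate because the covariance of the comparisons is not given, and the effect of that covariance was not tested. Intervals are 95% normal intervals. Positions came from RefSeq (GRCm38.p6, 12299 genes matched by symbol) and lengths and GC content from GENCODE M21 (12046 genes). Python 3.11.15, numpy 2.4.6, scipy 1.17.1, pandas 2.3.3, Biopython 1.88 and matplotlib 3.10.9 were used. The alternatives were other adjustments, centring on all genes or on genes of like length, GC content or chromosome, a threshold of 0.01, and subsets of members. A few single-gene values are not reported here.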

Additional observations from a re-analysis of the deposited data

How the results depend on the processing

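With the Wald statistics of all genes centred and scaled to their robust spread, the members passing went from 73 to 20 in unstimulated cells, from 48 to 2 after LPS and from 1 to 0 for LPS in Vim+/+ cells. Of all genes, 188, 290 and 157 passed under this scaling. At like length of the longest transcript the members numbered 55, 29 and 0 (all genes 1753, 1303 and 237). At like length of the principal transcript they numbered 48, 25 and 0 (all genes 1732, 1284 and 246), where Rpl35a was the 1 higher gene among the 48 and among the 25. No member was then under a log2 fold change of -1 in unstimulated cells (0 at either length against 6), and without the members of chromosome 17 there were 2. At an adjusted p under 0.01 the counts were 72, 24 and 0, where 1468, 802 and 173 of all genes passed. The cause of these changes was not tested. The count of 0 for LPS in Vim-/- cells and for the difference of LPS responses was the same under every alternative run, and the smallest adjusted p of a member in the latter lay between 0.208 and 0.41. Of the comparisons between settings for the counts, medians and levels per kilobase, 66 kept their value within 1.5 times or within the standard error, and the other 13 were counts that fell by more, all given above. For the single genes, the call and direction were kept in 1031 cases, the call was lost in 70 and gained in 18, a value that had not passed changed sign in 33, and no called gene changed sign. The settings by chromosome, principal transcript length and overlap were chosen after seeing the data. No paired analysis was possible because the deposited tables hold no values per library, and for the same reason no replicate could be left out. Depth per library is unknown.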

Other observations

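The tables also list 11 symbols holding -ps, which name processed copies of ribosomal protein genes and were not members. In unstimulated cells Rpl14-ps1 (log2 fold change -0.91, SE 0.293, baseMean 643) and Rpl34-ps1 (-0.93, SE 0.245, baseMean 1251) passed as lower in Vim-/- cells in the authors' DESeq2 test, and Rps19-ps3 had the 1 value above 0 (0.51, SE 0.742). After LPS Rpl14-ps1 passed at -0.92. Reads of these copies and of their parents may be shared, and how they were counted is not given in the sources used here. These genes were chosen after their values were seen.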
